A study of Papio hamadryas with 160 samples.

Results

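miR-126, miR-143 and miR-145 are microRNAs (miRNAs) of the blood vessel wall, and their levels were followed in blood mononuclear cells and in brain tissue of the same baboons (Papio hamadryas). Every entry of the expression table named hsa-miR-126, hsa-miR-143 or hsa-miR-145 was taken, which gave 5 of the 362 miRNAs: hsa-miR-126-3p, hsa-miR-126-5p, hsa-miR-143-3p, hsa-miR-145-3p and hsa-miR-145-5p. The entries were chosen by name, with earlier results of these data known. All 5 had at least 10 reads in each of the 66 brain libraries, so none of them passed the table's minimum through 1 region only.

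miRNAs are short RNAs that bind partly complementary messenger RNAs and lower their translation or stability, and the 2 arms of a hairpin precursor (5p and 3p) can each give a mature miRNA. miR-126 lies in an intron of EGFL7, is a defining miRNA of endothelial cells and is needed for vascular integrity in mice and zebrafish. It is also carried by platelets and by blood progenitor cells. miR-143 and miR-145 are made from 1 shared transcript and mark vascular smooth muscle and other mesenchymal cells, where they favour the contractile state. In brain, such cells are those of the vessel wall and the meninges. No mature sequence or genome position of these miRNAs is given here.

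Small RNA was sequenced from 76 libraries of 10 animals in 2 groups. Group A had 4 adult females euthanised with pentobarbital (A1 to A4), with 4 libraries of peripheral blood mononuclear cells (PBMCs) and 27 brain libraries from the amygdala (AMG), the hypothalamus at its paraventricular nucleus (PVN), dorsomedial prefrontal cortex (dmPFC), dorsal anterior cingulate cortex (dACC), lateral and medial orbitofrontal cortex (lOFC, mOFC) and posterior cingulate cortex (PCC), with no AMG library for A4. Group B had 5 males and 1 female that had served as controls in a pregnancy study and were exsanguinated under anaesthesia (B1 to B6), with 6 PBMC libraries and 39 brain libraries from the hippocampus (HC), cerebellum (CB), dorsolateral prefrontal cortex (dlPFC), motor cortex (MC), entorhinal cortex (EC), posterior parietal cortex (PPC) and occipital cortex (OC), and 3 animals lack 1 region each (B2 its CB, B4 its MC, B6 its OC). Sex, age, euthanasia, freezing of the brain and the regions taken all differ between the groups and cannot be told apart. Levels are mapped miRNA reads per 1000000 such reads of the library (RPM), so each is a share of a library and not an amount per cell, and in such bulk tissue fewer cells of a type and less RNA per cell cannot be told apart.

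Libraries held 707977 to 7036397 mapped miRNA reads, and the shallowest were the PBMC libraries of Group B, at 707977 to 1208336. The markers of the labelled tissues were as the labels say: all 7 measured leukocyte miRNAs of the list used here were higher in PBMCs than in brain in both groups, and all 6 neuron miRNAs were lower. miR-124-5p, a neuron marker, had no reads in any PBMC library. Of the 66 brain libraries, 19 were most like another region than the one on their label, 15 of them another cortical region and 4 across AMG and cortex. The gap was widest for a pair from A3. The library labelled AMG of A3 was most like the mOFC of the other animals (Pearson's r over the 362 miRNAs = 0.995, against 0.980 with their AMG), and the library labelled mOFC of A3 was most like their AMG (r = 0.991, against 0.982 with their mOFC). The mOFC of A4 was also closer to another region (dACC, r = 0.973, against 0.966 with mOFC). Where this was computed, results that rest on the A3 pair are given with and without it.

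miR-126 was the member that was higher in blood. miR-126-3p stood at 3752.87 ± 612.1 RPM in the PBMCs of Group A (SD, n = 4) and at 3807.32 ± 1500.9 RPM in those of Group B (SD, n = 6), against 1224.41 ± 42.8 and 1537.19 ± 116.5 RPM for the animals' brain means. miR-126-5p stood at 39293.7 ± 12835.5 and 26030.7 ± 13101.0 RPM in PBMCs, against 7233.99 ± 396.9 and 6117.61 ± 744.0 RPM in brain. miR-143-3p and both arms of miR-145 went the other way and were far lower in PBMCs. miR-143-3p, one of the most abundant miRNAs in brain (place 3 to 19 of the 362 in the brain libraries), had brain means of 23303.7 ± 3118.8 RPM in Group A and 18137.3 ± 2998.8 RPM in Group B, and miR-145 was of low abundance there, with brain means of 51.5 ± 28.0 and 172 ± 24.2 RPM for its 3p arm and 148 ± 30.8 and 220 ± 78.8 RPM for its 5p arm.

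**Figure D1:**
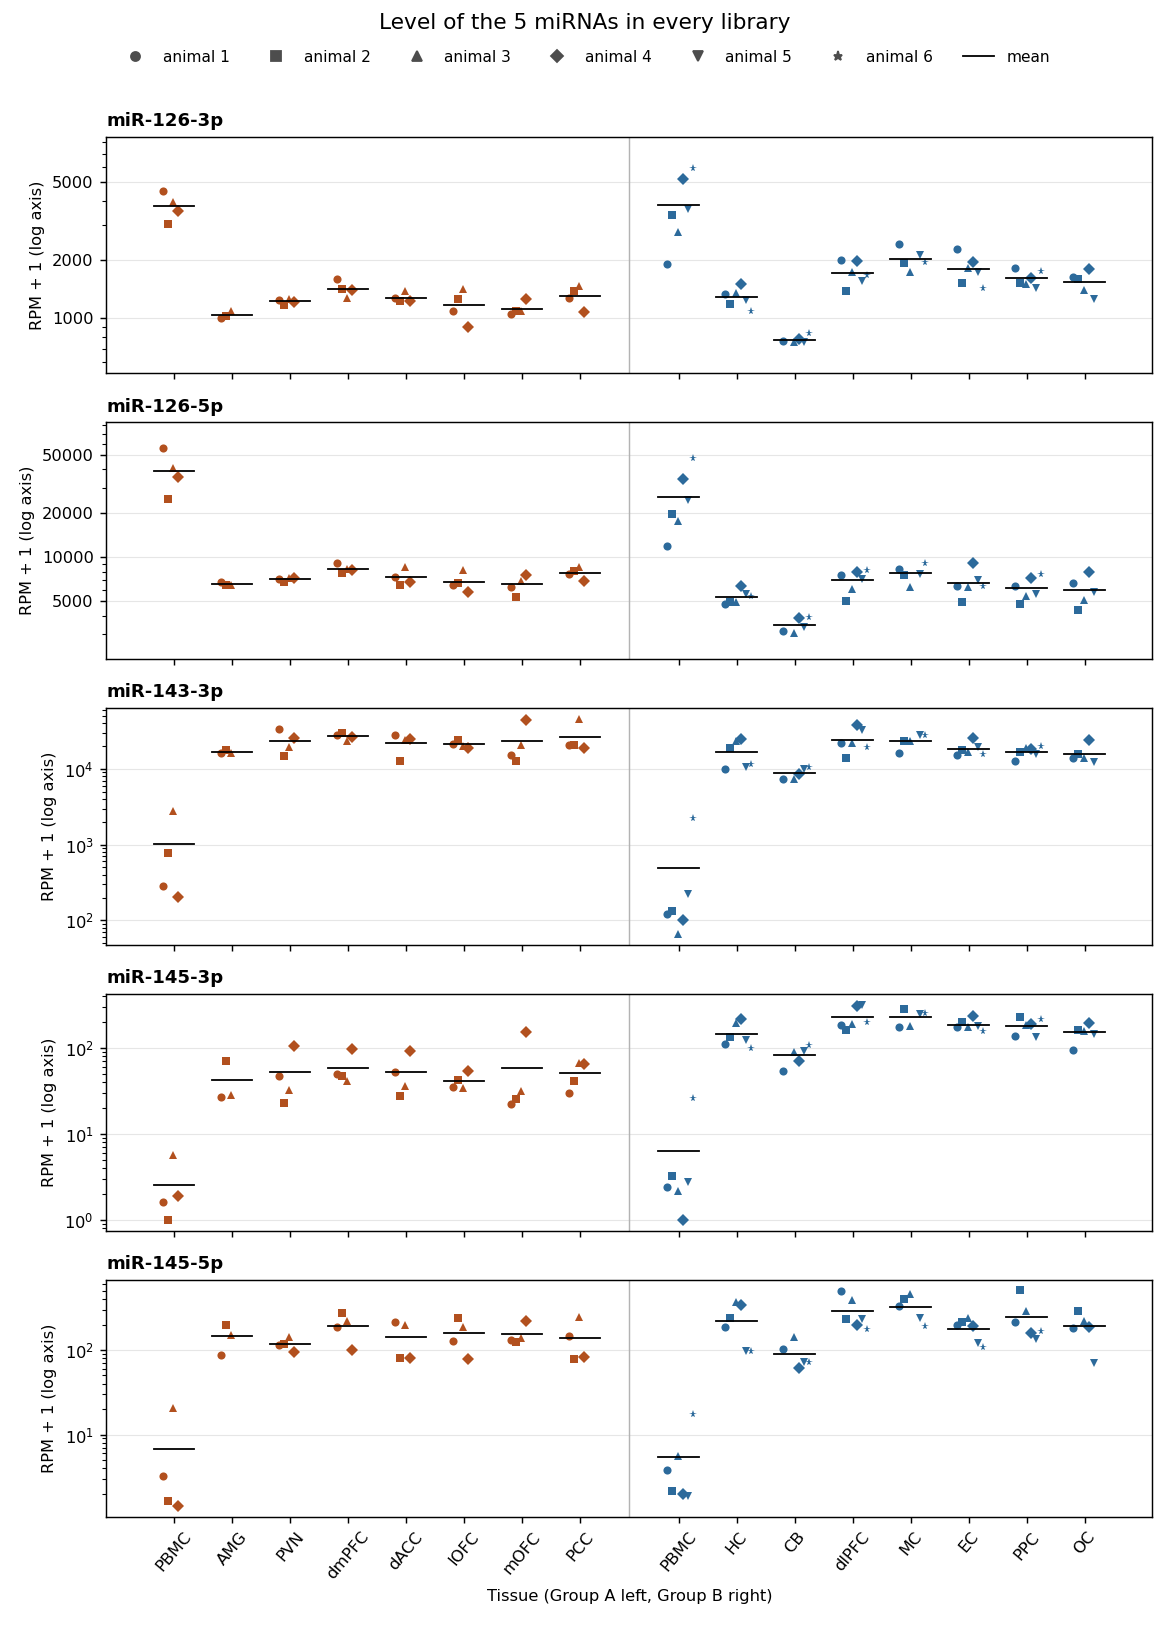
Level of each of the 5 miRNAs in all 76 libraries (vertical axes, RPM + 1 on a log axis) by tissue, with Group A on the left in brown and Group B on the right in blue. Points are animals, with 1 marker shape per animal number within a group, and black lines are means. miR-126 is higher in PBMCs than in brain, miR-143-3p and miR-145 are lower in PBMCs, and CB has the lowest mean of the Group B brain regions for all 5.

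In Group A, miR-126-3p was 4483.53, 3038.31, 3943.96 and 3545.67 RPM in the PBMCs of A1 to A4. All of them lay above the 27 brain libraries of the group, which ran from 901.01 to 1584.86 RPM. In Group B the PBMC values were 1899.78 RPM in B1, 3410.14 in B2, 2783.78 in B3, 5165.06 in B4, 3644.76 in B5 and 5940.4 in B6, beside brain libraries of 752.27 to 2404.32 RPM. The groups of libraries overlapped there because of B1 alone, whose PBMC value was below those of its own MC (2404.32 RPM), EC (2260.52 RPM) and dlPFC (1986.22 RPM) libraries. The other 5 animals of Group B had more miR-126-3p in PBMCs than in any of their brain libraries. Within animals, miR-126-3p was 3.03-fold higher in PBMCs than in the brain mean in Group A (log2 difference 1.60, SE 0.16, limma adjusted p = 0.000101) and 2.32-fold higher in Group B (1.21, SE 0.24, limma adjusted p = 0.00166). Most miRNAs differed between these tissues: 89% of the 362 miRNAs were called in Group A and 92% in Group B, of which 28.2% and 30.9% of all were higher in PBMCs. A call alone is therefore no mark of miR-126. The size in Group A depended on the scaling of the libraries, and DESeq2 on recovered reads gave 2.42, with the median of all miRNAs at -0.82 in place of -1.60.

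miR-126-5p, the other arm, was the more abundant one in all 76 libraries. In PBMCs it was 55793, 25037.2, 41023.8 and 35320.7 RPM in A1 to A4, and 11880.3, 19782.2, 17739.4, 34291.9, 24556.3 and 47933.7 RPM in B1 to B6. Blood and brain did not overlap in either group, since the highest brain library was at 9137.94 RPM in Group A and at 9149.49 RPM in Group B. The share of all miRNAs, or of arm ratios, with such a separation was not counted, here or for the tissues compared below. A lack of overlap is therefore no mark of these miRNAs. The log2 difference of miR-126-5p between PBMCs and brain was 2.38 (SE 0.20, limma adjusted p = 5.54e-05) in Group A and 1.95 (SE 0.23, limma adjusted p = 7.69e-05) in Group B. B1 was the animal with the smallest excess for both arms (1.09-fold for 3p and 1.93-fold for 5p), and B6 had the largest in Group B (4.09-fold and 7.04-fold).

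The 5p arm gained more than the 3p arm. The 5p to 3p ratio was 8.24 to 12.4 in the PBMC libraries of Group A and 4.93 to 6.75 in its brain libraries, with no overlap. In Group B it was 5.80 to 8.07 in PBMCs and 2.77 to 5.0 in brain, again with no overlap. On the log2 scale the 3p to 5p ratio was lower in PBMCs by 0.78 ± 0.21 in Group A (SD, n = 4), where an exact sign-flip test cannot go below p = 0.125 and gave that value. It was lower by 0.74 ± 0.09 in Group B (SD, n = 6; exact two-sided sign-flip p = 0.031, the smallest that 6 animals allow, and 0.063 when adjusted over the 4 ratios compared), and it was lower in all 10 animals of the 2 groups together (exact p = 0.002, adjusted over the 4 ratios 0.0039).

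miR-143-3p was 285.92, 770.46, 2792.97 and 202.65 RPM in the PBMCs of A1 to A4, and 121.47, 133.44, 64.58, 101.35, 220.7 and 2260.96 RPM in those of B1 to B6. A3 and B6 stood far above the other animals. All 10 PBMC values lay below every brain library of their own group, the lowest of which were 12813.6 RPM in Group A and 7420.43 RPM in Group B. The brain mean was 38.8-fold higher than PBMCs in Group A (log2 difference PBMC minus brain -5.28, SE 0.64, limma adjusted p = 0.000295) and 91.9-fold higher in Group B (-6.52, SE 0.64, limma adjusted p = 2.65e-05). Of all miRNAs tested, 60.8% in Group A and 61% in Group B were lower in PBMCs, with a median log2 difference of -1.60 and -1.41.

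miR-145, the partner of miR-143, was close to the detection limit in PBMCs. miR-145-3p was 0.61 RPM in A1, 0 in A2, 4.68 in A3 and 0.88 in A4. In B1 to B6 it was 1.41, 2.28, 1.15, 0, 1.79 and 24.83 RPM. In most animals these values are 0 to 3 reads. The libraries at 0 allow up to 1.89 RPM in A2 and 2.87 RPM in B4 at a floor of 3 reads per library (counting error only). At that floor the brain means of these animals were at least 20.3-fold and 69.5-fold higher. miR-145-5p was 2.24, 0.63, 19.54 and 0.44 RPM in A1 to A4 and 2.82, 1.14, 4.61, 0.96, 0.89 and 16.55 RPM in B1 to B6. Both arms lay below every brain library of their group in all 10 animals. PBMCs minus brain of miR-145-3p came to -4.57 (SE 0.48, limma adjusted p = 0.000141) and -5.72 (SE 0.56, limma adjusted p = 2.58e-05) in Groups A and B. Those of miR-145-5p were -5.37 (SE 0.57, limma adjusted p = 0.00015) and -5.78 (SE 0.51, limma adjusted p = 1.41e-05). At so few reads the size depends on the processing: the difference of miR-145-3p shrank to -2.34 in Group A and -3.73 in Group B with a pseudocount of 10 RPM in place of 1, and to -1.55 and -3.27 with quantile normalization. That of miR-145-5p shrank to -3.46 and -3.99 with 10 RPM, and to -2.77 and -3.41 with quantile normalization. Both were called each time.

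**Figure D2:**
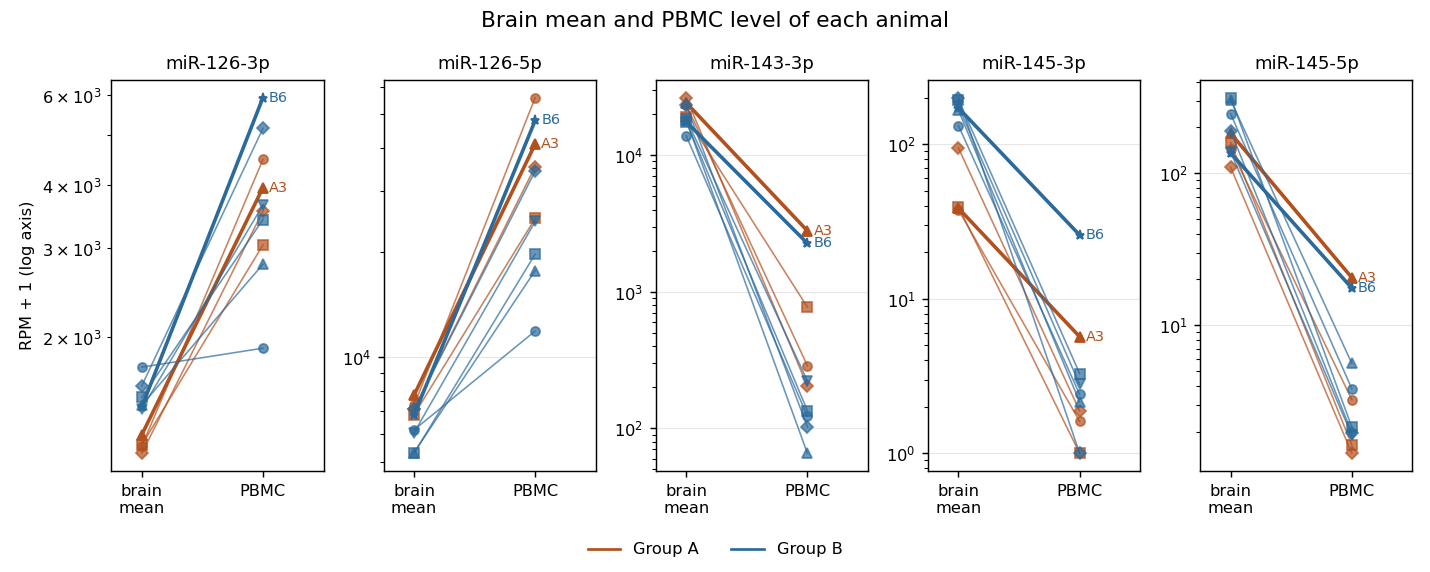
Mean over the brain libraries (left) and PBMC level (right) of each animal, in RPM + 1 on a log axis, with 1 panel per miRNA. Lines join the values of 1 animal (brown, Group A; blue, Group B), and A3 and B6 are drawn thick. All lines of miR-126 rise towards PBMCs, those of miR-143-3p and miR-145 fall, and A3 and B6 keep the highest PBMC levels of miR-143-3p and of both miR-145 arms within their groups.

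The same 2 animals, A3 and B6, were the highest of their groups for miR-143-3p, miR-145-3p and miR-145-5p in PBMCs. In A3 they were 3.63-fold, 5.32-fold and 8.72-fold above the next highest animal of Group A, and in B6 10.2-fold, 10.9-fold and 3.59-fold above the next highest of Group B. On the log2(RPM + 1) scale these 3 miRNAs had the 3 largest excesses among all 362 in A3 and in B6 as well, ahead of miR-541-3p in A3 (1.25) and of miR-885-5p and miR-383-5p in B6 (both 0.87, from 0.83 RPM each). This is a description of 2 libraries chosen after their values were seen, with no test. The reads behind it were few for miR-145: 17 reads of 3p in A3 (95% Poisson interval 2.73 to 7.49 RPM) and 30 in B6 (16.8 to 35.4 RPM), 71 reads of 5p in A3 (15.3 to 24.6 RPM) and 20 in B6 (10.1 to 25.6 RPM). miR-143-3p had 10148 reads in A3 (2739 to 2848 RPM) and 2732 in B6 (2177 to 2347 RPM), far above the next highest animals.

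Some other miRNAs, of mesenchymal and vessel-wall cells among them, were set beside these libraries, picked after their values were seen. The values of the remaining mesenchymal and vessel-wall miRNAs in A3 and B6 are not given. Neither arm of miR-199a was among the 5 largest excesses of the PBMCs of A3 or B6. miR-199a-5p, a miRNA of fibroblasts and other mesenchymal cells, was also highest in A3 within Group A (150.55 RPM, against 17.35 to 76.82) and in B6 within Group B (185.38 RPM, against 52.26 to 119.75), and so was miR-199a-3p (794.3 and 652.14 RPM). miR-133a-3p and miR-1-3p, the miRNAs of skeletal and heart muscle, are on the same list of vessel-wall and mesenchymal miRNAs as miR-199a. They had at most 0.28 RPM in the PBMCs of A3 and B6. miR-124-3p, a neuron miRNA, was 2.2 RPM in A3 and 1.66 in B6, within the range of the other PBMC libraries (0.89 to 16.14 RPM). miR-451a, carried by red blood cells, was 562.56 RPM in A3 and 51.31 in B6, neither being the highest of its group. The part of other cell types in the values of A3 and B6 was not tested.

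Without A3 and without B6 the differences between blood and brain grew for miR-143-3p (to -6.00 in Group A and to -7.23 in Group B). The difference between the groups in that contrast was not called for any member at the pseudocount of 1 RPM. It was 0.39 for miR-126-3p, 0.43 for miR-126-5p, 1.24 for miR-143-3p, 1.15 for miR-145-3p and 0.41 for miR-145-5p on the log2 scale (Group A minus Group B, limma adjusted p = 0.371 to 0.774), where 10.2% of the 362 miRNAs were called (1.1% higher and 9.12% lower). With a pseudocount of 10 RPM that of miR-145-3p was 1.39 and was called (limma adjusted p = 0.0223). The intervals were wide for miR-143-3p (95% interval -1.03 to 3.52) and for miR-145-5p (-1.47 to 2.29), so these data allow differences of several-fold. PBMC levels of the 2 groups did not differ beyond their spread either, with limma adjusted p from 0.336 for miR-126-5p to 0.983 for miR-145-5p (3.59% of all miRNAs called, 0.276% higher and 3.31% lower).

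The ratios tested, that of the miR-126 arms above among them, were taken on RPM + 1. They were taken within the library for PBMCs and between the animal's mean RPM values over its libraries for brain. The miR-126-3p to miR-145-5p ratio was higher in PBMCs in all 10 animals, by 6.98 ± 1.31 on the log2 scale (SD, n = 10; exact two-sided sign-flip p = 0.002, adjusted over the 4 ratios 0.0039). In each of these animals miR-126-3p was above its brain mean in PBMCs and miR-145-5p below it. The direction of their ratio, and so this p, followed from that and adds no separate result. The miR-143-3p to miR-145-5p ratio differed by -0.41 ± 1.13 (SD, n = 10; exact p = 0.291, adjusted 0.291), higher in 3 animals and lower in 7, so no difference was shown, and the spread between animals was wide. With a pseudocount of 10 RPM that value became -2.18, with an unadjusted exact sign-flip p under 0.05. miR-145-5p was under 5 RPM in 8 of the 10 PBMC libraries. The miR-145-5p to miR-145-3p ratio differed by -0.36 ± 0.75 (SD, n = 10; exact p = 0.166, adjusted 0.221) and turned to 0.14 with a pseudocount of 0.1 RPM.

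The remaining miRNAs of the vessel-wall and mesenchymal list did not share 1 direction. Of 13 listed, 10 were measured, and in Group A 5 were higher and 4 lower in PBMCs (median log2 difference 0.70, against -1.60 over all 362), and in Group B 6 were higher and 4 lower (0.84, against -1.41). miR-21-5p, found in many activated cell types, was the highest of them and rose by 4.49 in Group A and 4.75 in Group B (limma adjusted p = 7.9e-07 and 7.07e-08), while miR-133a-3p and miR-1-3p fell as miR-145 did (-6.74 and -6.41 in Group A, limma adjusted p = 3.36e-07 and 5.13e-07). miR-199a-3p and miR-199b-3p hold identical values in the table and are 1 measurement. Each was nevertheless counted separately in the counts and medians of this list. Of the 11 endothelial and angiogenic miRNAs, all measured, 5 were higher and 5 lower in Group A (median log2 difference 0.34). In Group B 6 were higher and 5 lower (0.70). Over all 362 miRNAs 28.2% were higher and 60.8% lower in Group A, and 30.9% and 61% in Group B.

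Among brain regions, CB stood apart for all 5 members. miR-126-3p was 768.07, 752.27, 781.08, 754.59 and 836.29 RPM in the CB of B1, B3, B4, B5 and B6, and no other Group B library was that low (HC, the next region, was at 1084.87 RPM or more). miR-126-5p was 3027.82 to 3908.3 RPM in CB, below all libraries of the other regions, the lowest of which was at 4399.48 RPM in the OC of B2. miR-143-3p was 7420.43, 7445.32, 8603.55, 10042.7 and 10616.4 RPM in CB, and 2 HC libraries (B1 at 9930.8 and B5 at 10609.9 RPM) fell in that range. miR-145-3p was 52.84 to 107.65 RPM and miR-145-5p 59.55 to 141.24 RPM in CB, and the overlap was wider for the 5p arm: 2 of the 34 libraries of other regions lay at or below the highest CB value for 3p, and 6 of 34 for 5p, among them the OC of B5 with 68.44 RPM.

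Within animals, CB was lower than the mean of the other brain regions in 5 of 5 animals for every member. The log2 difference was -1.10 for miR-126-3p (SE 0.08, limma adjusted p = 5.38e-06), -0.97 for miR-126-5p (SE 0.07, limma adjusted p = 5.01e-06), -1.17 for miR-143-3p (SE 0.12, limma adjusted p = 3.75e-05), -1.19 for miR-145-3p (SE 0.13, limma adjusted p = 5.86e-05) and -1.30 for miR-145-5p (SE 0.12, limma adjusted p = 2.12e-05), that is 1.96-fold to 2.47-fold lower. CB differed from the other regions in general: 85.1% of the 362 miRNAs were called, 62.2% as lower and 22.9% as higher, and the median over all was -0.56. The members lay below that median. In DESeq2 their values and the median of all moved up together, to -0.57, -0.44, -0.63, -0.66 and -0.79 (median over all -0.02), and all 5 were called lower under each of the 15 alternatives run. Other vessel-wall and mesenchymal miRNAs were also lower in CB, 8 of the 10 measured, with a median of -1.32. Here too the identical miR-199a-3p and miR-199b-3p were counted separately. miR-195-5p was the 1 member of that list that was higher (0.82, limma adjusted p = 0.00331). Of the endothelial and angiogenic list 5 were lower, 2 higher and 4 not called. The oligodendrocyte list was lower too (4 of 4). It summed to 2927.33 to 3652.16 RPM in CB, to 3789.81 to 7743.1 RPM in EC, the next region, and to 8161.63 to 10304.9 RPM in HC. Of the 7 leukocyte miRNAs 6 were lower and 1 higher. Of the 4 erythroid miRNAs 1 was higher (miR-486-5p, 1.92) and 3 lower, and of the 2 choroid plexus miRNAs miR-204-5p was higher (1.48) and miR-211-5p lower (-2.25), although the summed RPM of both lists was higher in CB (3541.17 to 5359.82 and 3251.72 to 4223.89 RPM) than in the median Group B brain library (1612.11 and 1467.27 RPM). The share that cell makeup has in the difference was not tested.

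**Figure D3:**
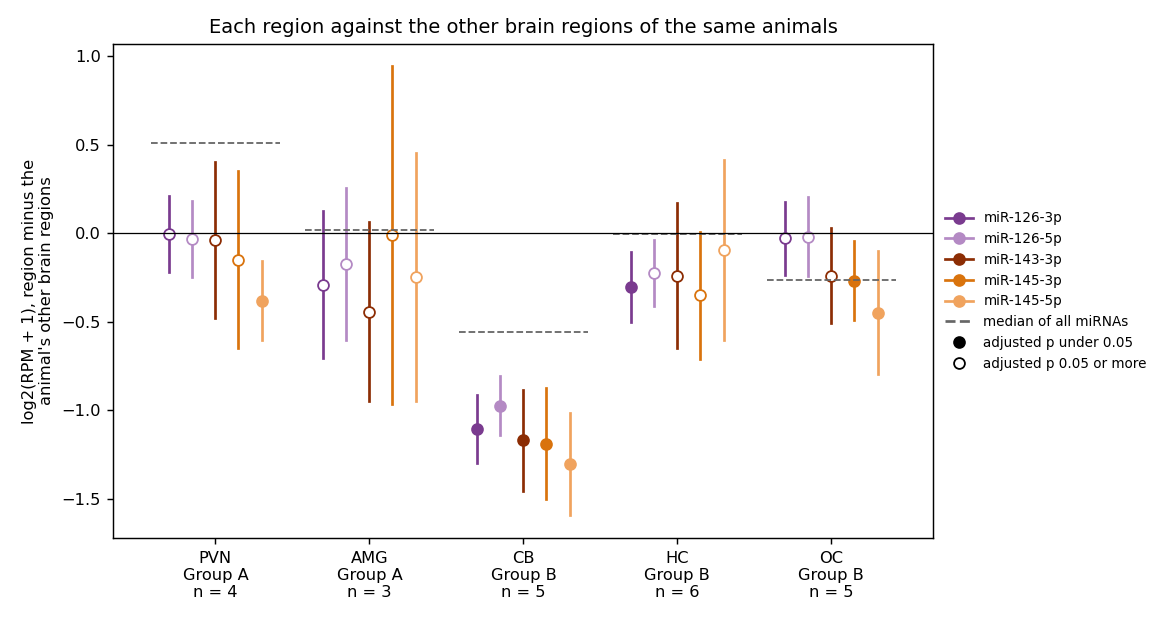
Difference in log2(RPM + 1) between a brain region and the mean of the animal's other brain regions (vertical axis) for the 5 miRNAs, with 95% intervals from limma and the number of animals under each region. Filled points have an adjusted p under 0.05 and dashed lines are the medians of all 362 miRNAs. In CB all 5 are filled, between -0.97 and -1.30, below the dashed line at -0.56, and in AMG none is filled.

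CB was last in the order of the Group B regions for all 5 members, and the rest of the order differed among them. For miR-126-3p it was MC (2028.32 RPM), EC (1782.4), dlPFC (1710.63), PPC (1603.52), OC (1532.21), HC (1285.69) and CB (778.46). Of these neighbours only OC and HC (log2 difference 0.24, limma adjusted p = 0.0304) and HC and CB (0.74, limma adjusted p = 1.88e-08) differed beyond their spread. MC was also first for miR-126-5p (7821.24 RPM), miR-145-3p (225.5 RPM) and miR-145-5p (324.7 RPM). EC, next to the top for miR-126-3p, was next to the bottom for miR-145-5p (177 RPM), below HC (222 RPM) and OC (190 RPM), though neither OC and EC nor HC and OC differed beyond their spread. For miR-143-3p dlPFC (24512.5 RPM) and MC (23789.7 RPM) did not differ beyond their spread. Over the 5 members 6 of the 30 pairs of neighbours were called in Group B, and 5 of those 6 were the step down to CB. Over all 21 pairs of regions, 10 to 13 pairs per member were called, most of them with CB or HC. The share of all miRNAs called per pair of regions is not given, here or for Group A. Against the other regions, 85.1% of the 362 miRNAs were called in CB, so a called step down to CB is no mark of the members.

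All 5 members varied among the 7 regions of Group B (limma F test, adjusted p = 2.95e-13 for miR-126-3p and 2.86e-06 for miR-145-5p, the smallest and the largest of the 5), where 91.7% of the miRNAs did. Among the 5 cortical regions alone all 5 were called as well (limma adjusted p = 0.0022 for miR-126-5p to 0.0128 for miR-145-3p; 70.7% of all called). With no term for the animal, none of the 5 was called in cortex (adjusted p = 0.0512 to 0.236). Leaving out B1 ended the call of miR-145-3p (adjusted p = 0.0726) and leaving out B5 that of miR-126-3p (0.0659).

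In HC, miR-126-3p was lower than in the other regions by 0.30 (SE 0.09, limma adjusted p = 0.0357; lower in 6 of 6 animals), and 23.2% of all miRNAs were called there, 12.2% as lower and 11% as higher. That call was lost when any 1 animal was left out (adjusted p = 0.0513 to 0.114) and in edgeR (0.0745). The other 4 members were not called in HC, but a block fit over all brain libraries called miR-126-5p lower (-0.16, limma adjusted p = 0.0461). In OC, miR-145-3p and miR-145-5p were lower by 0.27 and 0.45 (SE 0.10 and 0.15, limma adjusted p = 0.0429 and 0.0328; each in 5 of 5 animals), where 58% of all were called (48.6% lower, 9.39% higher) and the median over all was -0.27. These values differed with the scaling of the libraries. In edgeR, which scales them otherwise (median over all -0.02), miR-145-3p was at 0.06 and miR-145-5p at -0.10, neither called. There miR-126-3p and miR-126-5p, at -0.03 and -0.02 in RPM, were called higher (0.28 and 0.28, edgeR adjusted p = 0.0196 and 0.0412). Leaving out B1, B3 or B5 ended the OC call of miR-145-5p, and leaving out B1, B2, B3 or B5 that of miR-145-3p. Both were also lost in the block fit over all brain libraries (adjusted p = 0.401 for miR-145-3p and 0.197 for miR-145-5p) and with the mean of log2 values (0.183 and 0.135).

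Group A regions differed less for these miRNAs. miR-126-3p ran from 1041.97 ± 48.3 RPM in AMG (SD, n = 3) and 1122.82 ± 88.0 RPM in mOFC to 1414.72 ± 128.8 RPM in dmPFC (SD, n = 4). miR-143-3p ran from 16899.4 ± 1031.3 RPM in AMG to 26942.7 ± 2747.8 RPM in dmPFC, with 26611.5 ± 12880.2 RPM in PCC, and miR-145-3p from 40.1 ± 9.06 RPM in lOFC to 57.8 ± 26.2 RPM in dmPFC. The limma F test over the 7 regions gave an adjusted p of 0.0478 for miR-126-3p and 0.0542 for miR-126-5p, and 0.659 to 0.899 for the other 3, where 69.1% of all miRNAs were called. The call of miR-126-3p was lost without the AMG and mOFC libraries of A3 (adjusted p = 0.106), and also without A1 (0.451), without A2 (0.223) or without A3 (0.0566). miR-126-5p was called under 5 of its 12 alternatives: with a pseudocount of 10 RPM (adjusted p = 0.0378), median of ratios scaling (3.95e-05), quantile normalization (0.0054), without A4 (0.0435) and without the PCC library of A3 and the mOFC library of A4 (0.0183). miR-145-5p was called with quantile normalization (0.0288). Among the 5 cortical regions none of the 5 was called (7.73% of all were), which rested on 4 animals. None of the 30 pairs of neighbours in the order of levels was called, with or without the 2 libraries of A3. Of all 21 pairs of regions, 1 was called for miR-126-3p and for miR-126-5p (AMG below dmPFC) and none for the other 3 members. The call of AMG below dmPFC includes the doubtful AMG library of A3 and was not examined without it.

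In PVN, miR-145-5p was 116.5 ± 20.1 RPM, against 153.0 ± 32.4 RPM for the other regions of the same 4 animals, lower in 4 of 4 (log2 difference -0.38, SE 0.09, limma adjusted p = 0.00865). The other 4 members were between -0.15 and -0.0044 and not called, where 69.6% of all miRNAs were called 59.1% as higher and 10.5% as lower, with a median of 0.51. Set against that shift the members were low, and with median of ratios scaling all 5 were called lower, from -0.50 for miR-126-3p to -0.88 for miR-145-5p (median over all 0.02). Without the PCC library of A3 and the mOFC library of A4, in which miR-143-3p was highest, the RPM difference of miR-145-5p was -0.26 and not called (adjusted p = 0.105), an alternative chosen after seeing the data. The call was also lost in the block fit over all brain libraries (-0.28, adjusted p = 0.388). In AMG none of the 5 members and none of the 362 miRNAs was called by limma over 3 animals, with 21 at an unadjusted p under 0.05, 0 called by edgeR and 7 by DESeq2. Without the library labelled AMG of A3 the count by limma was again 0.

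miR-143-3p had single brain libraries well above the rest of their region. The PCC of A3 held 45898 RPM, against 19105.5 to 20732.6 RPM in the other 3 animals, and the mOFC of A4 44170.1 RPM, against 12903.9 to 20551.7 RPM. The mOFC of A4 was also the highest of its region for miR-145-3p (152.37 RPM, 4.95-fold the next) and miR-145-5p (220.02 RPM, 1.61-fold), and the PCC of A3 for miR-145-5p (243.54 RPM, 1.66-fold). miR-126-3p was only 1.14-fold and 1.06-fold above the next highest animal in these 2 libraries.

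The members moved together over brain libraries in a way that followed their precursors only in part. Over the 27 brain libraries of Group A and the 39 of Group B, the 2 arms of miR-126 had r = 0.860 and 0.876 (Pearson, log2(RPM + 1)), and miR-126-5p was the miRNA most like miR-126-3p among all the others in both groups. miR-143-3p and miR-145-3p had r = 0.70 and 0.911, and miR-145-3p was the second most like miR-143-3p in Group A and the most like it in Group B. The 2 arms of miR-145 had r of only 0.057 in Group A and 0.609 in Group B. Such values describe libraries that share animals, regions and depth, and carry no test.

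Outside the 5, the miRNAs with the most similar pattern, ranked by the lower of the r values of the 2 groups, were miR-23a-3p (0.613), miR-24-2-5p (0.574) and miR-29b-3p (0.549) for miR-126-3p. They were miR-144-3p (0.549), miR-24-2-5p (0.536) and miR-23a-3p (0.525) for miR-126-5p. For miR-143-3p they were miR-199a-5p (0.593) and the identical pair miR-199a-3p and miR-199b-3p (0.531). For miR-145-3p they were miR-146a-5p (0.585), miR-199a-5p (0.583) and miR-212-5p (0.574), and for miR-145-5p miR-451a (0.632), miR-582-5p (0.628) and miR-23a-3p (0.599).

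The loose relation between the miR-145 arms went with the animal. The miR-145-5p to miR-145-3p ratio had a median of 3.85 over the brain libraries of A1 (2.46 to 6.14), 5.0 in A2 (1.93 to 5.89) and 5.48 in A3 (3.67 to 5.66), but 1.15 in A4 (0.857 to 1.48). A4 did not overlap with any of the other 3 animals of its group, in any region. In Group B the medians were 1.91 in B1 (1.15 to 2.71), 1.63 in B2 (1.07 to 2.21) and 1.62 in B3 (1.40 to 2.61), and 0.856 in B4 (0.641 to 1.61), 0.785 in B5 (0.477 to 1.02) and 0.769 in B6 (0.653 to 0.971). B5 and B6 lay wholly below B1, B2 and B3, and B4 overlapped with them through 1 library, its HC. The 5p arm was the more abundant one in 47 of the 66 brain libraries.

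**Figure D4:**
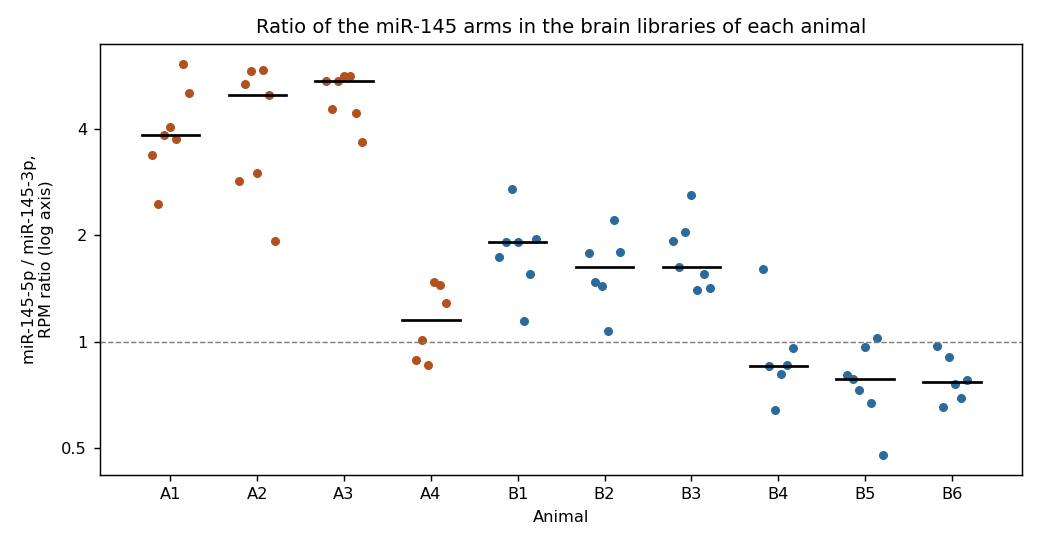
Ratio of the RPM of miR-145-5p to that of miR-145-3p (vertical axis, log) in each brain library, by animal (brown, Group A; blue, Group B), with the animal's median as a black line and a dashed line where the arms are equal. A4 sits between 0.857 and 1.48, below the other animals of Group A, and B5 and B6 sit wholly below B1, B2 and B3.

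Of the spread of this log2 ratio over brain libraries, 79.5% in Group A and 72.9% in Group B went with the animal, and 5.57% and 8.62% with the region. Among the miRNAs with both arms at a mean of at least 10 RPM, this placed miR-145 at 7 of 83 in Group A and at 4 of 80 in Group B by the animals' share, where the median pair had 27.6% and 22.4%. For the 5p to 3p ratio of miR-126 the animals' share was 31.5% in Group A (place 34 of 83) and 58.2% in Group B (place 9 of 80), and the regions' share 21.3% and 9.41%. For the levels of the miR-126 arms in Group B, region went with 88.3% of the spread of miR-126-3p and 79.0% of that of miR-126-5p, and the animal with 6.82% and 23.3%. In PBMCs the ratio of the miR-145 arms rests on 0 to 30 reads of the 3p arm and is not compared here. Which property of the animals or of their libraries goes with the arm ratio was not tested.

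Whether an animal's blood level tracked its brain level was asked in Group B, with 6 animals. No member showed a positive correlation between PBMC and mean brain RPM past the threshold: Pearson's r was -0.44 for miR-126-3p (Spearman's rho = -0.49), 0.71 for miR-126-5p (rho = 0.54), -0.10 for miR-143-3p (rho = -0.31), -0.05 for miR-145-3p (rho = -0.09) and -0.40 for miR-145-5p (rho = -0.03). The exact one-sided permutation p was 0.0667 for miR-126-5p (adjusted over 340 miRNAs 0.444; rho, exact permutation p = 0.149) and 0.596 to 0.810 for the others (adjusted 0.824 to 0.901; rho, exact permutation p = 0.540 to 0.851). Of the 340 miRNAs with reads in PBMCs, 12.6% had an unadjusted p under 0.05 and none passed the adjustment. The value of miR-126-5p rested on B4 and B6, without which r was -0.16. No correlation was computed over the 4 animals of Group A. There miR-126-5p was highest in the PBMCs of A1 (55793 RPM), whose brain mean was 7255.81 RPM, while the highest brain mean was in A3 (7765.23 RPM).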

How the data were processed

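Small RNA libraries (Illumina TruSeq, GAIIx) were sequenced in repeated runs, which the authors combined. They aligned reads to human miRBase v21 with no mismatch by bowtie in mirDeep2 (versions not given in the sources used here), so baboon-specific variants are not counted. The deposited RPM values are mapped miRNA reads per 1000000 such reads of a library. Whole reads were recovered from the RPM steps, with the library total chosen so that values up to 200 RPM were whole. All of them were whole within 0.1 reads, which that choice largely fixed in advance. The deposited read count of each miRNA is a total over all libraries, used only as a check. Recovered reads were 0.99996 to 1 of that total. No value column was unmapped (0).

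Members (by name) and marker lists were chosen with earlier results of these data known. So were the comparisons of PVN, AMG, CB, HC and OC with the other brain regions. All members are described, and the 3 most similar miRNAs per member by the lower r of both groups. The rule for marker lists was the members of highest mean level, and the others named (miR-133a-3p, miR-1-3p, miR-195-5p, miR-199a, miR-124, miR-451a) were chosen after their values were seen. limma 3.58.1 (R 4.3.3) was fitted to log2(RPM + 1) over all 362 miRNAs, with Benjamini-Hochberg adjustment over all of them and a threshold of 0.05, on differences within animals or with the animal as a term. PBMCs were compared with the mean RPM of the animal's brain libraries. Samples of 1 animal are paired by the labels, and same-animal deviations correlated at 0.21 to 0.86 for brain regions and at -0.17 to 0.66 for PBMCs. Ratios and correlations had exact permutation tests by full enumeration (numpy 2.4.6, with ranks from scipy 1.17.1). edgeR 4.0.16 and DESeq2 1.42.0 on recovered reads, other pseudocounts, scalings, filters and omissions were alternatives. The tests were checked on simulated data. Fold changes on the log2(RPM + 1) scale understate changes of low miRNAs. Intervals of single libraries cover counting error only, since reads carry no molecular identifiers.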

Additional observations from a re-analysis of the deposited data

Results flagged for a closer look

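Within the tissues of a group with 4 to 6 animals, 9 of 75 sets of values held an animal far from the rest by Dixon's criterion, where chance alone flags about 1 in 20. Of these, 4 were PBMC values of the 2 animals described above: miR-143-3p in B6 (2260.96 RPM), miR-145-3p in B6 (24.83 RPM), miR-145-5p in B6 (16.55 RPM) and miR-145-5p in A3 (19.54 RPM).

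The other 5 were brain values. In Group A they were miR-143-3p in the PCC of A3 (45898 RPM), miR-145-3p in the dmPFC (96.8 RPM) and mOFC (152.37 RPM) of A4, and miR-145-5p in the mOFC of A4 (220.02 RPM). In Group B miR-143-3p stood out in the OC of B4 (23874.8 RPM, against 12496.1 to 15685.6 RPM in the other animals). No value of miR-126 was flagged.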

How the results depend on the processing

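The direction and the call of all 5 members between PBMCs and brain, and in CB, held under each of the 15 alternatives run. Over all single-miRNA results, 858 alternatives kept direction and call, 43 lost the call, 23 gained one and 54 turned the sign, where only the OC values of miR-126 in edgeR and DESeq2 were called after the turn. The cause of the changes was not tested.

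Counts of called miRNAs moved as follows. For Group A against Group B in PBMCs minus brain (37 called), it was 17 with a pseudocount of 0.1 RPM, 106 with 10 RPM, 57 with quantile normalization and 20 to 40 with 1 animal left out. For PBMCs of the 2 groups (13), it was 21 with 10 RPM, 22 with a mean of at least 10 RPM, 5 with median of ratios scaling, 8 with quantile normalization and 2 to 32 with 1 animal left out, 32 being without B6. For cortex of Group A (28), it was 18 with median of ratios, 17 with quantile normalization, 64 without the AMG and mOFC libraries of A3, and 3 to 14 with 1 animal left out. In AMG (0) DESeq2 called 7 and a block fit over all brain libraries 32. In HC (84) DESeq2 called 131, the block fit 159, and leaving out 1 animal gave 41 to 100. In OC (210) quantile normalization gave 135 and DESeq2 137. Among Group A neighbours (0) median of ratios gave 5 and quantile normalization 6, and the blood to brain correlations (43) were 28 by Spearman's rho and 23 to 39 with 1 animal left out.

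Without the animal as a replicate block, 4 miRNAs were called in cortex of Group A and 39 in HC. All 5 members lost their call in cortex of Group B, and so did miR-145-5p in PVN (adjusted p = 0.119), miR-126-3p in HC (0.0667), miR-145-3p and miR-145-5p in OC (0.261 and 0.327) and miR-126-3p over the Group A regions (0.107).

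Signs turned for values near 0 (log2 differences). PVN minus other regions of miR-126-3p was 0.012 without the PCC library of A3 and the mOFC library of A4 (an alternative chosen after seeing the data), 0.0086 as a mean of log2 values and 0.020 in the block fit, and that of miR-143-3p was 0.093, 0.029 and 0.045. AMG of miR-145-3p was 0.012 with 10 RPM, 0.24 without the AMG and mOFC libraries of A3, 0.059 without the PCC library of A3 and the mOFC library of A4, and 0.048 both as a mean of log2 values and in the block fit. HC of miR-145-5p was 0.027 as a mean of log2 values and 0.045 in the block fit. OC of miR-126-3p was 0.21 with median of ratios, 0.20 with quantile normalization, 0.033 as a mean of log2 values, 0.28 in edgeR, 0.32 in DESeq2 and 0.048 in the block fit. OC of miR-126-5p was 0.21 with median of ratios, 0.028 as a mean of log2 values, 0.28 in edgeR, 0.31 in DESeq2 and 0.042 in the block fit. OC of miR-143-3p was 0.0017 with median of ratios, 0.088 in edgeR and 0.12 in DESeq2, and OC of miR-145-3p was 0.057 in edgeR and 0.089 in DESeq2. PBMCs of Group A minus Group B were at 0.047 for miR-145-5p with 10 RPM.

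With 1 animal left out, the sign also turned within these ranges: -0.33 to 0.98 for miR-145-5p in Group A against Group B of PBMCs minus brain, -0.12 to 0.18 for miR-126-3p and -0.95 to 0.34 for miR-145-5p in PBMCs of Group A minus Group B, -0.024 to 0.019 for miR-126-3p, -0.27 to 0.093 for miR-143-3p and -0.33 to 0.097 for miR-145-3p in PVN, -0.54 to 0.27 for miR-145-3p and -0.56 to 0.037 for miR-145-5p in AMG, -0.34 to 0.0033 for miR-145-5p in HC, and -0.084 to 0.019 for miR-126-3p and -0.078 to 0.053 for miR-126-5p in OC. The blood to brain r ran from -0.65 to 0.24 for miR-126-3p, -0.34 to 0.15 for miR-143-3p, -0.40 to 0.12 for miR-145-3p and -0.67 to 0.56 for miR-145-5p.

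Ratios with miR-145 moved with the pseudocount, since PBMC reads were few. The miR-145-5p to miR-145-3p ratio (PBMCs minus brain) was 0.36 in Group B and 0.14 over all animals with 0.1 RPM. With 10 RPM it was -0.60 over all animals, with an unadjusted exact sign-flip p under 0.05. The miR-143-3p to miR-145-5p ratio was 0.22 over all animals with 0.1 RPM, and -1.79 in Group A, -2.44 in Group B and -2.18 over all animals with 10 RPM. With 1 animal left out, Group B gave -0.77 to -0.72 for miR-126-3p to miR-126-5p and 6.72 to 7.39 for miR-126-3p to miR-145-5p, where 5 animals cannot reach the threshold. The miR-145-5p to miR-145-3p ratio ran from -0.29 to 0.18 in Group B and from -0.52 to -0.26 over all animals, and the miR-143-3p to miR-145-5p ratio from -0.54 to 0.41 in Group A and from -0.67 to -0.19 over all animals. Depth limits miR-145 in PBMCs, at 0 to 71 reads, and also miR-143-3p in B3, at 56 reads (95% Poisson interval 48.8 to 83.9 RPM).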
